A study of Bos taurus with 12 samples.

Results

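Sperm methylation was described here at 233 autosomal cattle genes that carried an Ensembl identifier but no functional name, out of 3513 genes named by any locus of the study. A gene was taken when a listed locus on chromosomes 1 to 29 lay within 10 kb of one of its annotated features and its description was absent (225 genes, each tagged protein coding) or read uncharacterized (8 genes). Dense blocks of listed loci on chromosomes 1, 14, 18, 21 and 29 were left out. The 2208 autosomal genes with a name, chosen by the same distance and stretches, served for comparison. Single CpG sites were listed for 206 of the unnamed genes and windows for 41, with 14 genes having both.

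Genomic DNA came from 12 sperm samples of male cattle, 6 labelled low daughter fertility and 6 labelled high daughter fertility, and was read by EM-seq, an enzymatic alternative to bisulfite sequencing that converts cytosines lacking a methyl group. All samples shared the tissue, the sex and the extraction with a DNeasy column kit, and the labels do not say whether each sample is a separate bull. The values are the authors' own comparison of the groups: a difference in methylation in percentage points, a p-value and a q-value (a p-value adjusted for many tests) for each CpG site and for each tile, a window of 500 bp set every 100 bp. Which group was subtracted is not stated, so a difference is called positive or negative as listed and neither sign is tied to a fertility group. Methylation levels and coverage of single samples were not analysed here, so the depth is unknown, no spread between samples stands beside a value, and the sperm label could not be checked against marker genes.

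Gene models without a name are predicted from the genome sequence or from transcripts and often have no assigned counterpart in another species. Such models are common in families that multiply by local duplication, among them olfactory receptors (odorant-sensing membrane proteins), zinc finger proteins (DNA-binding proteins) and the variable segments of T cell receptors, which are joined by recombination in lymphocytes and are unrearranged in germ cells. In mammalian sperm most CpG sites are methylated, with CpG-rich promoters and regions that keep nucleosomes as the main exceptions.

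Methylation near the unnamed genes differed between the fertility groups at few sites, in both directions but more often with a negative sign, as it did over all autosomal sites. A site was called when its q was below 0.05 and its difference at least 10 points in size. Of the 475 sites near unnamed genes 21 were called (4.42%) in the authors' deposited table, against 90 of the 3047 sites near named genes (2.95%) and 5.94% of all 17730 listed sites. The share near unnamed genes lay below that background and close to the 4.48% of all autosomal sites (605 of 13502). The calls fell in 14 of 206 unnamed genes (6.80%) and in 81 of 1890 named genes (4.29%). Sites of 1 gene are not independent, and no test was made between these shares.

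Of the 475 sites near unnamed genes 15 were called with a negative sign, against 848 of all 17730 listed sites (4.78%). With a positive sign 6 of the 475 were called, against 205 of all 17730 (1.16%). The unnamed genes' calls were thus 71.4% negative in the authors' deposited table. Near named genes the calls were 44 negative and 46 positive (48.9% negative), while 68.6% of autosomal calls and 80.5% of all listed calls were negative. Called differences near unnamed genes reached 20 points or more in size at 10 sites and 30 points at 1 site, and their median size was 19.4 points. No call there was as large as the extremes near named genes, which ran from -50.6 to 39.3 points.

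Over all sites, called or not, the median difference in the authors' deposited table was -0.885 points near unnamed genes (quartiles -4.95 and 1.84) and -0.123 points near named genes (quartiles -2.80 and 1.70). It was -1.01 points over all listed sites and -0.710 points over autosomal ones. Of the unnamed genes' sites 273 were negative, 187 positive and 15 at 0. Differences ran from -32.2 to 25.7 points. A q below 0.05, whatever the size of the difference, was listed for 23 sites near unnamed genes (4.84%), against 8.11% of all listed sites. Of these 23 sites 17 were negative, against 1135 of all 17730 listed sites (6.4%), and 6 positive, against 303 (1.71%). A further 54 sites differed by at least 10 points without reaching a q of 0.05, and 112 sites had an unadjusted p below 0.05. The plot of difference against q shows the calls on both sides and the green sites that pass one threshold alone.

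**Figure D1:**
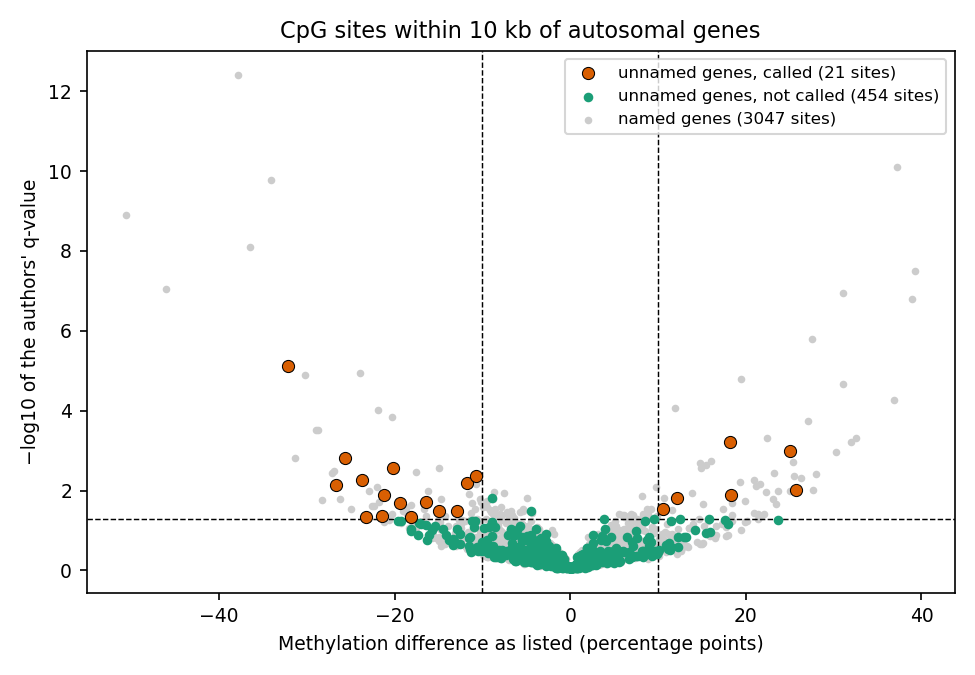
Difference as listed (x axis, percentage points) against −log10 of the authors' q-value (y axis) for each site within 10 kb of an autosomal gene; orange and green points are sites near unnamed genes and grey points are sites near named genes, and dashed lines mark a q of 0.05 and differences of 10 points. The 21 called sites lie above the horizontal line and beyond the vertical ones, 15 on the left and 6 on the right, between -32.2 and 25.7 points.

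Most unnamed genes had a single listed site. That held for 143 of 206 genes (69.4%), against 73.2% of named genes, and 16 genes with at least 5 sites each held 211 of the 475 sites. Those 16 genes held 12 of the 21 calls, in 6 genes. The other 190 genes held 9 calls, in 8 genes. Among the 14 genes with a call, 8 had negative calls alone, 4 had positive calls alone and 2 had both.

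Chromosomes 13 and 18 held the most calls. Together they carried 13 of the 21 calls (61.9%) but 138 of the 475 sites (29.1%), so that 9.42% of their sites near unnamed genes were called in the authors' deposited table, against 8 of 337 (2.37%) on the other autosomes. Among the other listed sites of these chromosomes 28 of 1120 were called on chromosome 13 (2.5%) and 33 of 963 on chromosome 18 (3.43%), and no test of the difference was made. The chromosomes were picked for their calls, which came from 7 genes, and the share was also 1 of 7 on chromosome 9 (14.3%), 1 of 8 on chromosome 14 (12.5%) and 1 of 11 on chromosome 25 (9.09%). Without both chromosomes, a setting chosen after seeing the data, 8 calls in 7 unnamed genes were left.

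The stretch with the most calls was on chromosome 13, between 10822690 and 11421970 (ARS-UCD1.2, 599 kb). Its 6 unnamed genes had 67 sites within 10 kb and 8 calls, 6 of them negative. The closest gene with a name was ninein like, a relative of the centrosomal protein ninein, which lies 7668 bp from the first of the 6 and 574022 bp from ENSBTAG00000040222. Signs in the stretch were mixed, with 35 negative and 32 positive sites.

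In that stretch ENSBTAG00000022931 had the largest called difference of any unnamed gene. The site at 11281916, which lies 677 bp from the coding sequence at 11282593 to 11282704, differed by -32.2 points (q = 7.64e-06) in the authors' deposited table. Sites at 11285979 and 11287150, both in the intron at 11285894 to 11287652, differed by -25.6 points (q = 0.00152) and -20.2 points (q = 0.00270) in the authors' deposited table. These 3 calls lie 4063 and 1171 bp apart, yet the gene's 29 sites divided into 15 negative and 14 positive with a median of -0.843 points, so the calls stand far below the gene's other sites. Its 1 tile differed by -2.18 points.

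ENSBTAG00000049042, next in the stretch, had 16 sites evenly divided in sign. Its calls in the authors' deposited table were -19.4 points at 11214057 (q = 0.0210) and -16.4 points at 11215397 (q = 0.0192), 1340 bp apart, in the authors' promoter class of the coding sequence at 11211980 to 11212960. ENSBTAG00000040222 had 1 site, at 11396802, with a difference of 12.2 points (q = 0.0150) in the authors' deposited table, 7581 bp downstream of its coding sequence. The other unnamed genes of the stretch, ENSBTAG00000036222 with 4 sites and ENSBTAG00000054579 with 3, had no call within 10 kb. Beyond 10 kb, 1 of 27 further sites was called for ENSBTAG00000036222. It was 1 of 39 for ENSBTAG00000022931 and 0 of 53 for ENSBTAG00000017012.

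ENSBTAG00000017012, the gene nearest ninein like, had calls of opposite sign 13 bp apart. The site at 10838047 differed by 25.7 points (q = 0.00978), the largest positive call of any unnamed gene, and the site at 10838060 by -21.5 points (q = 0.0423), in the authors' deposited table. Both are listed on the minus strand, downstream of the coding sequence at 10835308 to 10835395. Of this gene's 14 sites 10 were negative, with a median of -2.56 points.

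**Figure D2:**
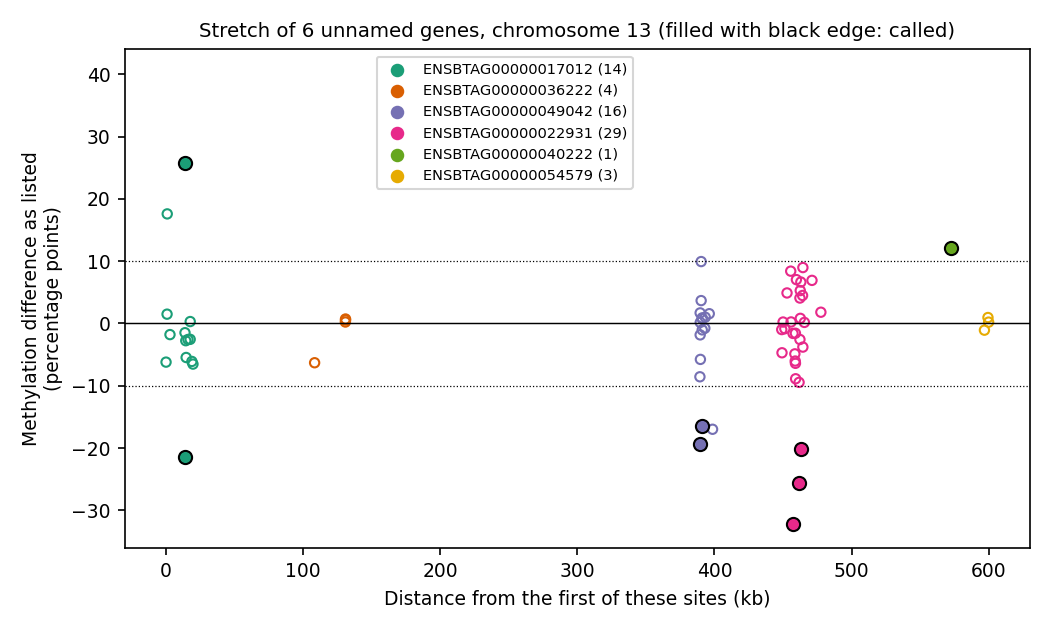
Difference as listed (y axis, percentage points) at each site of the 6 unnamed genes of the chromosome 13 stretch, against the distance in kb from the first site (x axis); colours mark genes, with their number of sites in brackets, filled points with a black edge are called, and dotted lines mark differences of 10 points. Calls of both signs, from -32.2 to 25.7 points, stand among sites that lie mostly between the dotted lines.

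On chromosome 18 the sites were more often negative. A stretch of 3316 kb (57937390 to 61252997) held 10 unnamed genes, of which 9 had a zinc finger protein as their nearest named gene. Of its 34 sites 27 were negative and 7 positive, with a median of -6.05 points in the authors' deposited table, and 5 were called, 4 of them negative. A single gene, ENSBTAG00000046864, held 22 of these sites. All 6 tiles of the stretch were negative with a q below 0.05, against 55.9% of all listed tiles, and differed by -5.35 to -2.95 points. Of these, 5 form 1 overlapping run at 58142701 to 58143600 near ENSBTAG00000046864, and 1 lies near ENSBTAG00000011052, so they are not separate observations.

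ENSBTAG00000034090 had the largest call there. By the authors' deposited table the site at 60286225 differed by -26.7 points (q = 0.00709), 5096 bp from its intron at 60291321 to 60332639, and the site at 60273266, the last base of another intron, by -18.1 points (q = 0.0456). All 4 of its sites were negative, with a median of -13.0 points. ENSBTAG00000054310 had 1 call of 2 sites, -23.3 points at 59011619 (q = 0.0454), and -5.002 points at the other site, in the authors' deposited table. ENSBTAG00000046864 had 22 sites and a call of each sign in the authors' deposited table, 18.3 points at 58133062 in an intron (q = 0.0132) and -12.9 points at 58138927, 5711 bp downstream (q = 0.0331). The calls of this gene lie 5865 bp apart, 15 of its 22 sites were negative, and its median was -4.98 points.

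The plot of all sites of the 14 genes shows a single call in 8 of them and more than 1 in the others. The 14 genes held 117 sites that were not called, 74 negative and 43 positive, with a median of -1.60 points in the authors' deposited table. The 192 genes without a call within 10 kb had 337 sites there, with a median of -0.524 points, from -19.3 to 23.7 points. Of these sites 38 differed by at least 10 points.

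**Figure D3:**
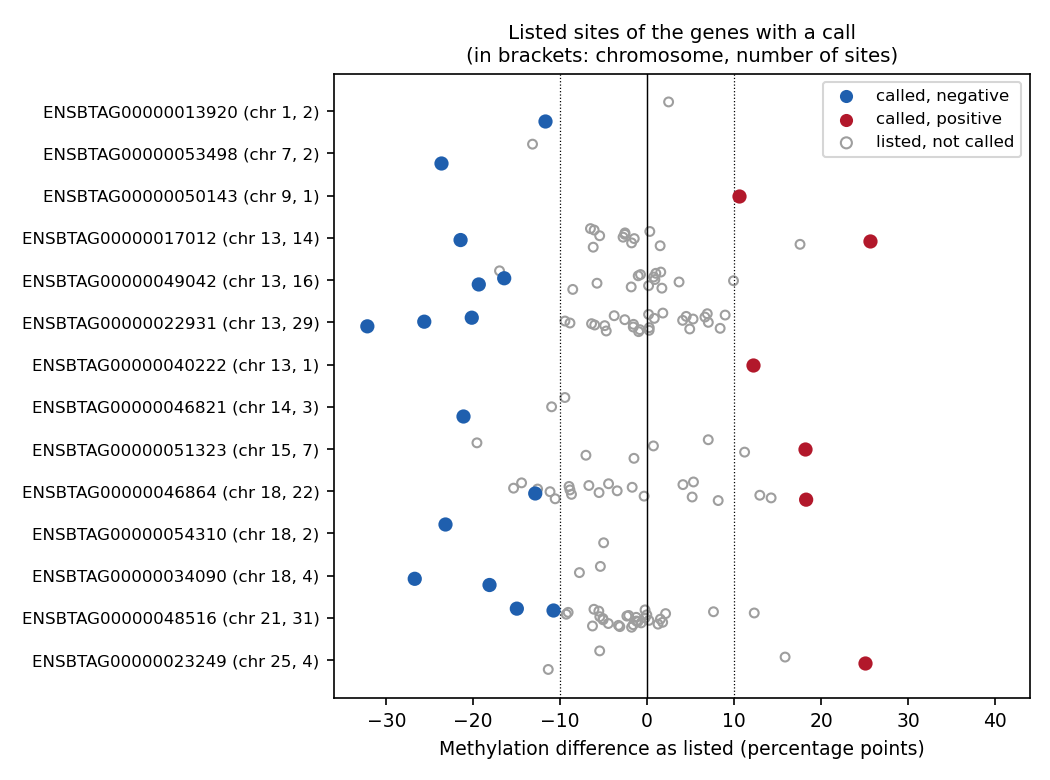
Difference as listed (x axis, percentage points) at every site of the 14 unnamed genes with a call, 1 row per gene in chromosome order; filled blue and red points are negative and positive calls, open points are sites not called, and dotted lines mark differences of 10 points. In ENSBTAG00000022931 the 3 calls, at -20.2 points and below, stand apart from the other sites.

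Calls inside coding sequence fell in 2 genes. In ENSBTAG00000046821 on chromosome 14, whose coding segment at 78647952 to 78648657 is 706 bp long, the site at 78648540 differed by -21.2 points (q = 0.0130) in the authors' deposited table. All 3 of its sites were negative. ENSBTAG00000048516 on chromosome 21 had 31 sites, the most of any unnamed gene, and 2 calls in a coding segment of 2142 bp (19630064 to 19632205). These were -15.0 points at 19632103 (q = 0.0320) and -10.8 points at 19631968 (q = 0.00439), 135 bp apart, in the authors' deposited table. Its nearest named gene, 6974 bp away, was interferon stimulated exonuclease gene 20, which degrades single-stranded RNA.

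Other negative calls were single sites. In ENSBTAG00000053498 on chromosome 7, the 1 gene with a call whose nearest named gene was an olfactory receptor (7A10, 141359 bp away), the site at 10173180 differed by -23.7 points (q = 0.00538) and its other site by -13.2 points in the authors' deposited table. In ENSBTAG00000013920 on chromosome 1 the site at 58073985 differed by -11.8 points (q = 0.00656) in the authors' deposited table, 1037 bp from a coding sequence.

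Positive calls came from 6 genes, 4 of them without a negative call. In ENSBTAG00000023249 on chromosome 25 the site at 25755 differed by 25.01 points (q = 0.00101) and a neighbouring site by 15.9 points, while sites farther off differed by -11.4 and -5.46 points, in the authors' deposited table. In ENSBTAG00000051323 on chromosome 15 the intronic site at 49985482 differed by 18.2 points (q = 0.000602) in the authors' deposited table. A second intronic site of that gene, at 49987641, differed by -19.6 points and missed the threshold (q = 0.0570) in the authors' deposited table, so this gene too had large differences of both signs. In ENSBTAG00000050143 on chromosome 9 its 1 site, at 87224571 in an intron, differed by 10.6 points (q = 0.0286) in the authors' deposited table. Both of these genes overlap a listed feature of a gene with a name, the RNA polymerase III subunit RPC9-like gene for ENSBTAG00000051323 and UL16-binding protein 3-like, a ligand-type gene of natural killer cell recognition, for ENSBTAG00000050143.

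Genes were also grouped by the kind of their nearest named gene, against 5.94% of all listed sites and 4.48% of autosomal sites called. None of the 66 sites of the 26 genes nearest a T cell receptor segment was called in the authors' deposited table, nor any of 8 sites of 4 genes nearest an immunoglobulin-like receptor. The 66 sites all lie on chromosome 10, where 2% of the other listed sites were called. For the 19 genes nearest an olfactory receptor 1 of 16 sites was called (6.25%), and for the remaining 172 genes 15 of 349 (4.30%). For the 12 genes nearest a zinc finger protein it was 5 of 36 (13.9%). These 5 are the calls of the chromosome 18 stretch described above, and 22 of the 36 sites came from ENSBTAG00000046864. The nearest named gene was sought among genes that have a listed locus, at median distances from 41238 bp for the immunoglobulin-like receptors to 367326 bp for the zinc finger proteins, so it marks a chromosomal neighbourhood and not a family membership. No test was made between these shares.

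On chromosome 10 no site within 10 kb of the 21 unnamed genes nearest a T cell receptor alpha segment (10596 to 949011 bp away) was called. Calls were few on this chromosome: outside the sites near unnamed genes, 12 of 600 listed sites were called (2%). They had 66 sites in the authors' deposited table, 34 negative, 31 positive and 1 at 0, with a median of -0.237 points and quartiles of -6.29 and 2.49 points. Differences ran from -19.3 to 23.7 points and 11 sites differed by at least 10 points, but the lowest q was 0.0542. The sites at the extremes were 23537524 near ENSBTAG00000051554 (-19.3 points, q = 0.0582) and 23606345 near ENSBTAG00000048874 (23.7 points, q = 0.0542) in the authors' deposited table. With p-values adjusted over all listed sites by the Benjamini-Hochberg method both were called. Beyond 10 kb, 2 sites of these genes were called by the authors' q, of which the site at 22770132 near ENSBTAG00000054833 (-24.8 points, q = 0.00468) lies 10004 bp from its feature. The 8 tiles of these genes, in 2 of them, were all negative (-3.45 to -0.187 points), 6 with q below 0.05.

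The authors' q followed p within chromosomes and not across them. Within each chromosome the listed q never fell as p increased among sites, but over the whole table it did at 7690 neighbouring ranks, so the p that a site needs for a q below 0.05 differs by chromosome. The largest p that met it in the authors' deposited table was 0.00122 on chromosome 10, 0.00225 on chromosome 13, 0.00349 on chromosome 18 and 0.000113 on chromosome 15, the lowest of the chromosomes analysed. Adjusted over all listed sites instead, where the largest p called was 0.00345, 29 sites in 19 unnamed genes were called (6.11%), against 5.34% of all listed sites. In all 9 calls were gained and 1 was lost, the site at 19632103 of ENSBTAG00000048516, and 4 of the gained calls lay on chromosome 15, of which ENSBTAG00000051394 had 3.

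The sites near unnamed genes lay in other parts of their genes than those near named ones. The authors' class was within the feature for 143 of 475 sites (30.1%), against 2166 of 3047 (71.1%) for named genes. It was promoter for 159 (33.5%), against 417 (13.7%), and downstream for 173 (36.4%), against 464 (15.2%). The closest feature was a coding sequence for 62.1% of sites near unnamed genes and 12.8% near named genes, and an intron for 24.2% and 65.9%. These classes refer to the closest feature and not to the whole gene. Of the 332 sites outside their closest feature, 13 still lay inside the listed extent of their gene, 2 of them called. Calls near unnamed genes in the authors' deposited table were 8 of 143 sites within the feature (5.59%), 9 of 173 downstream (5.2%) and 4 of 159 in promoters (2.52%). Near named genes the order of these classes differed, with 52 of 2166 within (2.40%), 16 of 464 downstream (3.45%) and 22 of 417 in promoters (5.28%). Comparisons of unnamed with named genes carry this difference in position, whose part in the shares above was not tested.

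Sites of both signs lay on each side of the 10 kb threshold. Just inside it were ENSBTAG00000046864 at 9846, 9896 and 9912 bp (-4.44, -14.4 and 5.33 points), ENSBTAG00000049042 at 9984 bp (-17.0 points) and ENSBTAG00000054833 at 9995 bp (9.16 points), none called in the authors' deposited table. Just outside it were 2.27 points at 10003 bp from ENSBTAG00000017012, the called -24.8 points at 10004 bp from ENSBTAG00000054833, -9.59 points at 10044 bp from ENSBTAG00000049042, -6.40 points at 10062 bp from ENSBTAG00000046864 and 6.14 points at 10082 bp from ENSBTAG00000054833.

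The 8 genes described as uncharacterized had 9 sites and no tile. Their sites differed by -6.58 to 9.59 points in the authors' deposited table, none was called and the lowest q was 0.0527. By NCBI number all 8 are protein-coding genes in the RefSeq annotation of the later assembly ARS-UCD2.0. Of these, 2 carry a symbol there: ENSBTAG00000046380 is the olfactory receptor gene OR5B142 (9.59 points at its 1 site) and ENSBTAG00000014328 is MGC138914 (-6.58 points at its 1 site) in the authors' deposited table.

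Tiles gave another picture from sites: differences were small and most had a low q. None of the 285 tiles near unnamed genes was called, against 16 of 1173 near named genes (1.36%, all negative, in 5 genes) and 2.78% of all 7290 listed tiles (2.63% negative and 0.151% positive) in the authors' deposited table. With p-values adjusted by the Benjamini-Hochberg method over all listed tiles the count could only be 0 again, since no tile near unnamed genes reached 10 points in size. An unadjusted p below 0.05 was listed for 212 of the 285 tiles, of which 0 differed by at least 10 points. Near named genes it was 622 of 1173 tiles, and over all listed tiles 4798 of 7290. A q below 0.05 was listed for 227 tiles near unnamed genes (79.6%), against 61.0% near named genes and 71.8% of all listed tiles. The largest tile p that met this q ran from 0.0184 on chromosome 22 to 0.503 on chromosome 28, so these shares depend on the chromosomes involved. A Benjamini-Hochberg value below 0.05 over all listed tiles was found for 208 of the 285.

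Tiles with q below 0.05 near unnamed genes lay in 34 genes and had a median size of 2.68 points in the authors' deposited table. They were negative for 143 of the 285 tiles (50.2%), against 55.9% of all listed tiles, and positive for 84 (29.5%), against 15.9%. All 285 tiles ran from -8.19 to 8.21 points with a median of -0.588 points, against -0.186 points near named genes. Of the 227 tiles with q below 0.05, 15 had a p of 0.05 or more. Tiles overlap, so the 285 form 57 separate regions, 49 of them with a q below 0.05, and 6 genes hold 173 tiles (60.7%). By the authors' class, tiles downstream of a feature had a median of -3.56 points, those within it 0.0749 points and those in promoters -0.0304 points in the authors' deposited table. For all 171 tiles outside a feature the listed distance runs from the tile's first base, so such a tile can still overlap the feature. Of the 114 tiles classed within, 50 lay wholly inside. The classes therefore do not separate sequence inside from sequence outside features.

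Differences of at least 5 points with q below 0.05 were listed for 49 tiles (17.2%), against 15.4% of all listed tiles, 38 negative and 11 positive, in 12 regions and 10 genes. The lowest values were in ENSBTAG00000053765 on chromosome 16, whose 4 tiles at 54448801 to 54449600 differed by -8.19 to -7.59 points (lowest q = 1.91e-18) in the authors' deposited table. Its nearest named gene, arylacetamide deacetylase like 3, lies 336712 bp away. ENSBTAG00000047076 on chromosome 1 had 4 tiles at 157477001 to 157477800 that differed by -5.93 to -4.61 points in the authors' deposited table, and ENSBTAG00000048451 on chromosome 3 had a run of 7 tiles at 17442801 to 17444000 that differed by -5.90 to -3.90 points. In ENSBTAG00000048451 the runs on either side, of 4 tiles each, had medians of -1.34 and -0.966 points.

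**Figure D4:**
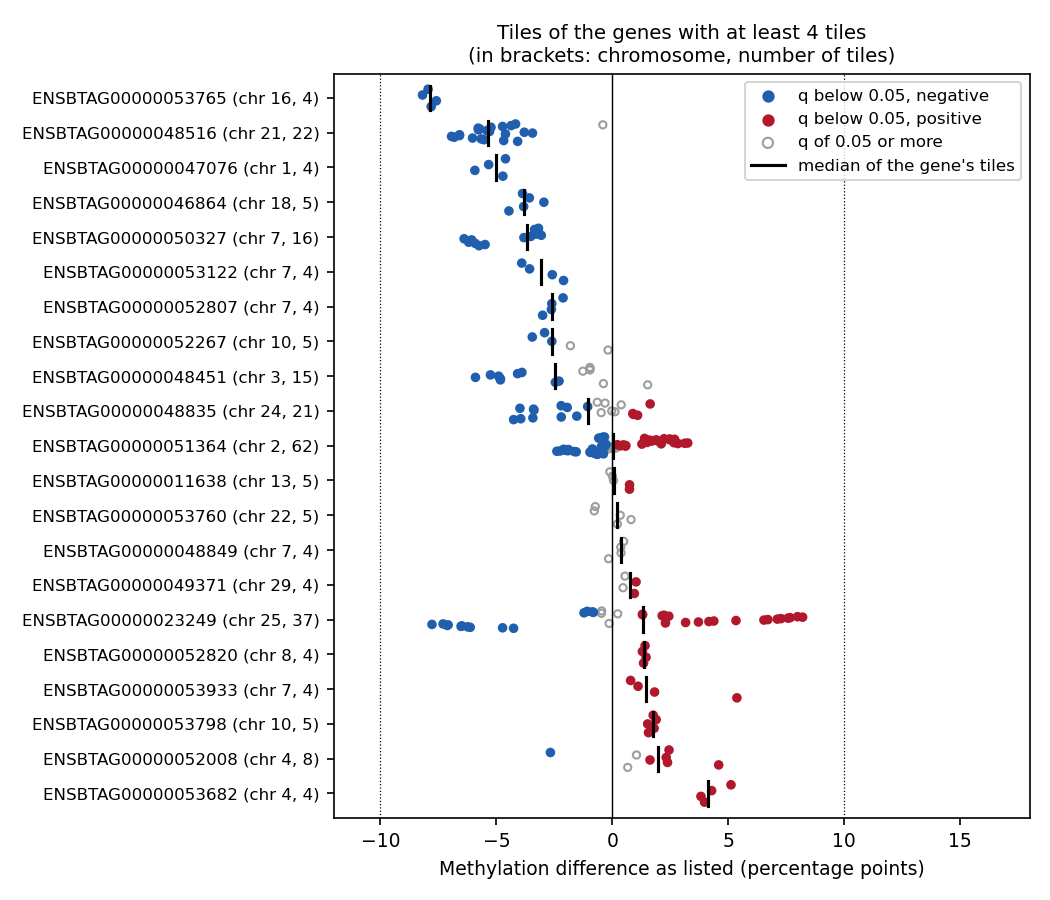
Difference as listed (x axis, percentage points) of every tile of the unnamed genes with at least 4 tiles, 1 row per gene ordered by its median (black bar); blue and red points have a q below 0.05 with a negative or positive sign, open points have a higher q, and dotted lines mark differences of 10 points. No tile reaches a dotted line, and several genes have tiles of both signs, among them ENSBTAG00000023249, ENSBTAG00000051364, ENSBTAG00000048835 and ENSBTAG00000052008.

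At the start of chromosome 7 a cluster of unnamed genes was negative in every listed tile. Its nearest named gene, olfactory receptor 5W2-like, lies 209041 to 244211 bp away. The 6 unnamed genes (84164 to 119367, 35.2 kb) had 31 tiles and no listed site. All 31 tiles were negative with q below 0.05, against 55.9% of all listed tiles. They differed by -6.39 to -2.10 points with a median of -3.57 points in the authors' deposited table. The tiles overlap, also between genes, as at 85501 to 86100 for ENSBTAG00000052137 and 85701 to 86300 for ENSBTAG00000049205. The 31 are thus not separate observations. The lowest run was of 7 tiles at 117501 to 118600 near ENSBTAG00000050327 (-6.39 to -5.49 points), and a second run of 6 tiles at 119901 to 120900 differed by -3.35 to -3.19 points. On chromosome 4 tiles were mostly positive near the 5 unnamed genes nearest a T cell receptor beta segment (4327 to 447738 bp away), unlike the 8 tiles of the T cell receptor alpha genes. These 5 genes had 17 tiles with a median of 2.32 points in the authors' deposited table. Of the 17, 13 were positive, against 2070 of all 7290 listed tiles, and 14 had a q below 0.05, against 71.8% of all listed tiles. They overlap: 7 form 1 run near ENSBTAG00000052008 and 4 another near ENSBTAG00000053682. All 3 tiles of ENSBTAG00000038605 were negative (-1.21 to -0.365 points). ENSBTAG00000053682 had the highest values there, 3.82 to 5.12 points over 4 tiles at 105597801 to 105598600.

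ENSBTAG00000051364 on chromosome 2 had the most tiles, 62, without a call. Of these 30 were negative and 32 positive, from -2.39 to 3.25 points with a median of 0.0252 points in the authors' deposited table, and 55 had a q below 0.05. The signs were arranged in blocks: a run of 35 tiles at 121567501 to 121571400 had a median of -0.667 points, the next run of 22 tiles at 121572001 to 121574600 a median of 1.80 points, and the last run of 5 tiles at 121575401 to 121576300 a median of -0.441 points. ENSBTAG00000048835 on chromosome 24 had 31 loci and no call, the most after ENSBTAG00000051364 among unnamed genes without a call. The listed extent of ENSBTAG00000048835 overlaps that of serpin B4, a protease inhibitor. The 10 sites of ENSBTAG00000048835 differed by -5.46 to 4 points and its 21 tiles by -4.26 to 1.63 points in the authors' deposited table.

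ENSBTAG00000023249 on chromosome 25 reversed sign across its short coding segment (22965 to 23327). By the authors' deposited table its 10 tiles at 19701 to 21300 differed by -7.78 to -4.26 points, and 15 tiles on the other side, at 26301 to 28200, by -0.139 to 8.21 points with a median of 6.54 points (lowest q = 1.02e-138). The next run of 12 tiles at 28401 to 30000 had a median of -0.114 points. The site nearest the first run was negative (-11.4 points) and the called site at 25755, which lies in no listed tile, was positive.

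ENSBTAG00000048516 was negative in both tables. All 22 tiles were negative, from -6.93 to -0.410 points with a median of -5.35 points (lowest q = 2.05e-92), and 24 of its 31 sites were negative, with a median of -1.79 points, in the authors' deposited table. A single tile held both of its called sites (-15.0 and -10.8 points) and differed by -4.17 points, smaller in size than either. Across unnamed genes 54 tiles in 12 genes held a listed site, and the tile had the sign of its sites' mean in 39 of 52 with a sign to compare. Many of these tiles overlap and share sites, so the 52 are not independent. ENSBTAG00000048516 supplied more of them than any other gene, all with the same sign as their sites. Only 2 of the 21 called sites lay in any listed tile, so the tables describe largely different sequence.

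**Figure D5:**
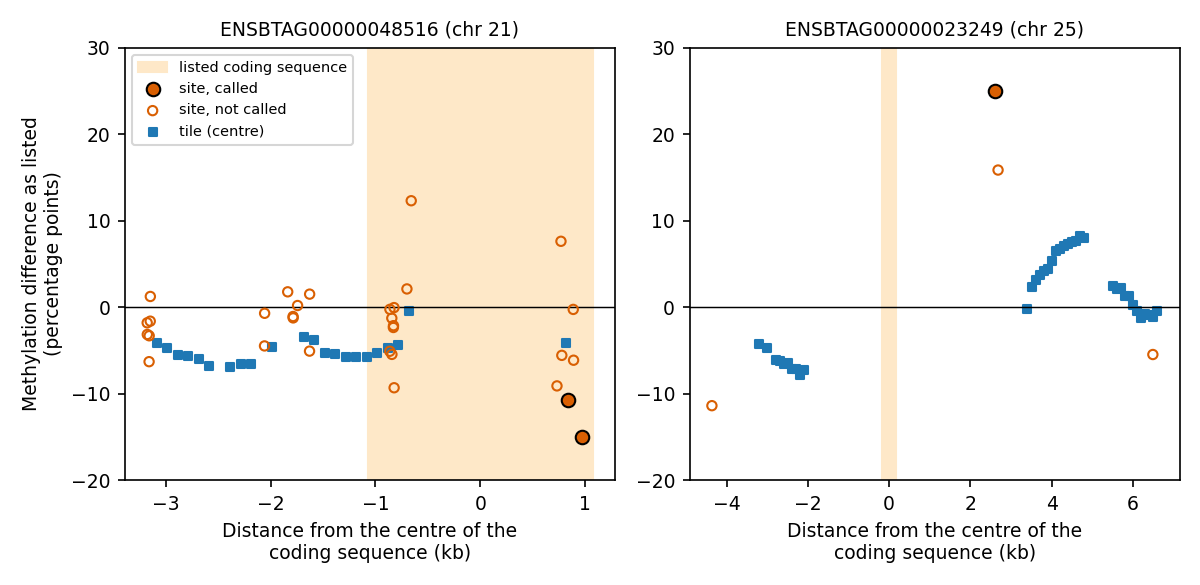
Difference as listed (y axis, percentage points) of sites (circles, filled where called) and tiles (blue squares at the tile's centre) near ENSBTAG00000048516 and ENSBTAG00000023249, against the distance in kb from the centre of the listed coding sequence (shaded). All 22 tiles of the first gene lie below 0, and the tiles of the second lie below 0 on the left (-7.78 to -4.26 points) and reach 8.21 points on the right.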

How the data were processed

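Sperm DNA of 12 samples was profiled by EM-seq. Trimmomatic, Bismark, methylKit and the build ARS-UCD1.2 are named in the submitters' processing notes, which state neither versions nor the role of each tool. The authors deposited 2 tables of their own comparison, giving for every site or tile the difference in percent methylation (percentage points), the p-value, the q-value and the closest annotated feature, which gave the gene identifiers and names. No counts or levels of single samples were analysed here, so the groups were not tested anew, and how q was obtained from p is not given in the sources used here. Chromosomes with no rows in a table were not analysed here.

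From these values Python 3.11.15, pandas 2.3.3, NumPy 2.4.6 and SciPy 1.17.1 gave counts, medians, shares and Benjamini-Hochberg values over each listed table, and the steps were tested on simulated data. Calls required q below 0.05 with a difference of at least 10 points in either direction. For a site inside a feature the listed distance runs to the nearest edge, so deep intronic sites fall outside the 10 kb rule, and the inside-only alternative uses the authors' class, since no inside locus has distance 0. The RefSeq gene table (ARS-UCD2.0) holds no Ensembl identifiers, so name classes planned from it were not made, and names came from NCBI numbers, of which 8 of 8 matched.

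The genes described are the 10 largest called differences of each sign, 1 site per gene, every gene with a called tile or called in both tables (none met either), the 5 genes with the most called sites, genes called inside an exon, and the 2 genes with the most loci and no call. Other genes, among them the tile genes and stretches, were picked after their values were seen. The genes, lists and thresholds were chosen with earlier results of these data known. Alternatives changed the q, the minimum difference, the distance, the left-out blocks, the definition of an unnamed gene, the spacing of loci and the adjustment of p.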

Additional observations from a re-analysis of the deposited data

How the results depend on the processing

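Of 69 alternative values 53 stayed within 1.5 times of a count, or within the 95% interval of a share (binomial) or median (order statistics), intervals that treat loci as independent. Of the 53, 9 were counts of called tiles and 9 were counts of genes with a called tile, all at 0. Most of these were fixed in advance, since no tile near unnamed genes reached 10 points in size. Called sites were mostly negative under every alternative tried (62.1 to 76.3%). The median over sites, -0.885 points, stayed negative under every alternative tried but was -0.470 points inside the feature and -1.20 points within 50 kb. The 21 called sites in 14 genes became 10 in 8 genes at q below 0.01, 9 in 7 genes for sites inside the feature, 38 in 28 genes within 50 kb, 67 in 26 genes with the left-out blocks kept, and 8 in 7 genes without chromosomes 13 and 18, which was chosen after seeing the data. The 0 called tiles became 49 in 10 genes at a minimum of 5 points and 20 in 4 genes with the left-out blocks kept. The median over tiles, -0.588 points, turned to 0.0465 points for tiles of the authors' class within the feature, many of which extend beyond it. It moved to -2.18 points with the blocks kept. The cause of these changes was not tested, beyond the fewer or more loci that each setting takes. With Benjamini-Hochberg values 29 sites in 19 genes and 0 tiles were called. The sign share of called tiles has no value, since no tile was called. No paired analysis was possible because the tables hold no values of single samples. For the same reason no sample could be left out, the coverage minimum could not be changed, and depth is unknown.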

Other observations

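Beyond 10 kb of their features, 769 further sites on autosomes had an unnamed gene as their annotation. Of these 33 were called in the authors' deposited table (4.29%), close to the 4.48% of all autosomal sites. The calls, 23 of them negative, lay near 29 genes, of which 2 also had a call within 10 kb. The median over the 769 sites was -1.37 points. The 769 include 25 sites deep inside an intron, of which 1 was called. The left-out blocks held another 465 sites near 21 unnamed genes, 46 of them called, against 1053 of all 17730 listed sites (5.94%). They also held 250 tiles, 20 of them called, against 203 of all 7290 listed tiles (2.78%). At 10 CpGs near unnamed genes both strands were listed, and the strands had the same sign at 8 of them, with no call at any.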
